A study of Malus domestica with 2 samples.

Results

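The genes described here act in the synthesis of, and the response to, the plant hormones ethylene and jasmonate in the pedicels, the fruit stalks, of apple (Malus domestica). Members were chosen by words in the authors' annotation (ethylene, ERF, EIN3, cytokinin response factor, lipoxygenase, allene oxide, jasmonate, TIFY and OPC-8), without genes also annotated with auxin or GH3. They had to have at least 1 mapped sequence or a row on one of the authors' sheets of differing genes. This gave 106 of 63541 gene models. The counts and the sheets thus took part in the choice, and the values below that come from them are a description.

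The samples were 1 library from the central pedicel and 1 from the lateral pedicel of the cultivar Saika, with no treatment, age or number of trees in the labels. Each library was made from mRNA and read on a Roche GS-FLX pyrosequencer. With 1 library per group, no difference had a replicate check, and fewer cells of a type cannot be told apart from less RNA per cell. The series title concerns early fruit drop and the auxin regulators IAA14/SLR and ARF7.

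Ethylene is made from S-adenosylmethionine by way of ACC, which the ethylene-forming enzyme (ACC oxidase) turns into the gas. Receptors related to histidine kinases sense it, the F-box protein EBF1 targets the transcription factor EIN3 for breakdown, and EIN3 acts on genes of ERF transcription factors. Jasmonate is made from plastid fatty acids by lipoxygenase, allene oxide synthase and allene oxide cyclase, and its later steps in the peroxisome include the OPC-8:0 CoA ligase. JAZ proteins, which carry the TIFY domain, repress jasmonate responses. In fruit trees, ethylene is known to promote the shedding of organs, and jasmonate is best known for roles in wounding, defence and flower development.

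Of the 106 members, 74 carried the annotation of an ERF-type DNA-binding domain, 14 were TIFY or JAZ genes and 11 were annotated as lipoxygenases. A further 4 acted in ethylene perception or the EIN3 step, 2 were enzymes of jasmonate synthesis after lipoxygenase, and 1 was the ethylene-forming enzyme. The annotation names domains, so the labels are broader than the pathways. The ERF-type domain is shared with AP2 and DREB factors, the LH2 domain of the lipoxygenases occurs in other proteins, and not every TIFY protein is a JAZ repressor. The words also met 2 methylenetetrahydrofolate reductases and 1 eRF1 translation factor, which have another function. These 3 models had no sequence and were not members.

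The central library held 18483 mapped sequences and the lateral library 18368, and 18337 gene models had a sequence in at least 1 of them. Per the file headers, the counted units came from a set of contigs, so a count is a number of mapped assembled sequences and does not give the reads behind them. If sequences are independent draws, a count of 0 allows up to 3 of them, 0.0162% of the central and 0.0163% of the lateral library. No member had more than 3 sequences in a library, so no fold change is given for any single member. Of the members, 105 had a sequence. Just inside the limit of 1 sequence lay 43 members with exactly 1, and outside it lay 237 models that matched the words and had none, 1 of which was kept for its row on a sheet.

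Summed over members, the central library held 103 sequences, 0.557% of the library (95% exact binomial interval 0.455% to 0.675%). The lateral library held 96, which was 0.523% (0.424% to 0.638%). The intervals cover counting error only and overlap widely. They take each assembled sequence as an independent draw, which was not checked, and do not give the error in numbers of reads. Lateral sequences made up 48.2% of the members' sequences (41.1% to 55.4%), against 49.8% of all sequences.

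**Figure D1:**
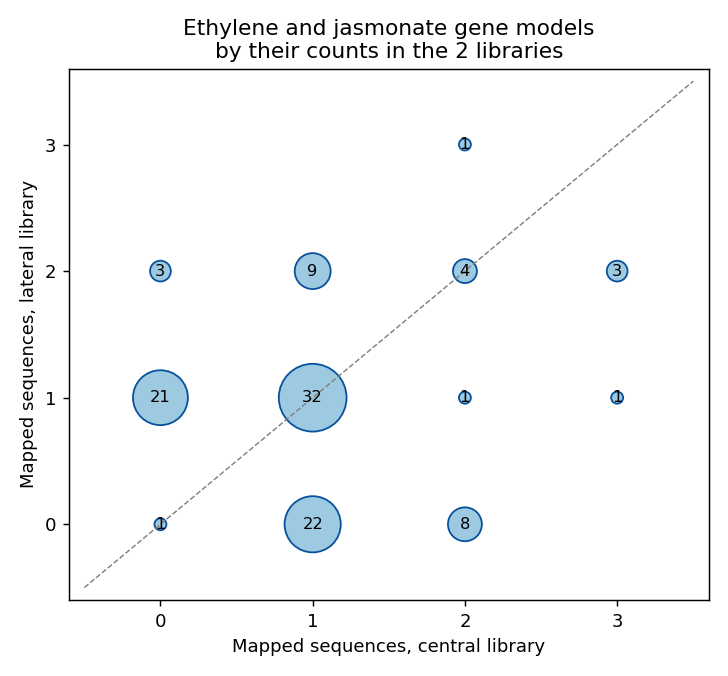
Number of ethylene and jasmonate gene models (figure in each circle, area in proportion) at each pair of counts, with central mapped sequences on the x axis and lateral on the y axis, and the dashed line at equal counts. The largest circles are 32 models with 1 sequence in each library, 22 with 1 central sequence alone and 21 with 1 lateral sequence alone.

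The members were spread over the libraries much like all detected gene models. Among the 105 with a sequence, 35 had more in the central library, 33.3%, where the share of all detected models was 36.2%. In 34 members, 32.4%, the lateral library had more, against 35.4% of all models, and 36 were equal, 34.3% against 28.4%. A sequence in the central library alone was found for 30 members (26.6% of all models), in the lateral library alone for 24 (26.1% of all models), and in both for 51 (47.2% of all models). On values scaled by library total, with 0.5 added to each count, 31 members were at least 2-fold higher in the central library, beside 28.3% of all models, and 24 in the lateral library, beside 27.9%. With 1 added in place of 0.5 they numbered 8 and 24, with at least 2 sequences required 9 and 3, and by RPKM 31 and 33, so neither the size nor the order of these counts is fixed. All members of the first pair of counts but MDP0000128924, with 3 central sequences and 1 lateral, had sequences in 1 library alone.

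No member could be called different. The Fisher exact test, two-sided, compared each gene model's sequences with the rest of the 2 libraries, and a call took a Benjamini-Hochberg adjusted p under 0.05 and a 2-fold difference. It was run on 24 gene models with at least 10 sequences, called 0% of them (0 models, 1 with an unadjusted p under 0.05), and none was a member. With no minimum the test made 0 calls among 18337 models, and the 4 models at an unadjusted p under 0.05 included no member. The smallest unadjusted Fisher exact p of a member was 0.248, for a split of 0 and 2 sequences. The members with the most sequences had 5 in all. Even with all 5 in 1 library, the smaller unadjusted Fisher exact p of the 2 directions would be 0.0308, that for lateral sequences alone. The test also takes assembled sequences as independent draws. At this depth it therefore does not bear on whether the members differed between the kinds of pedicel.

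**Figure D2:**
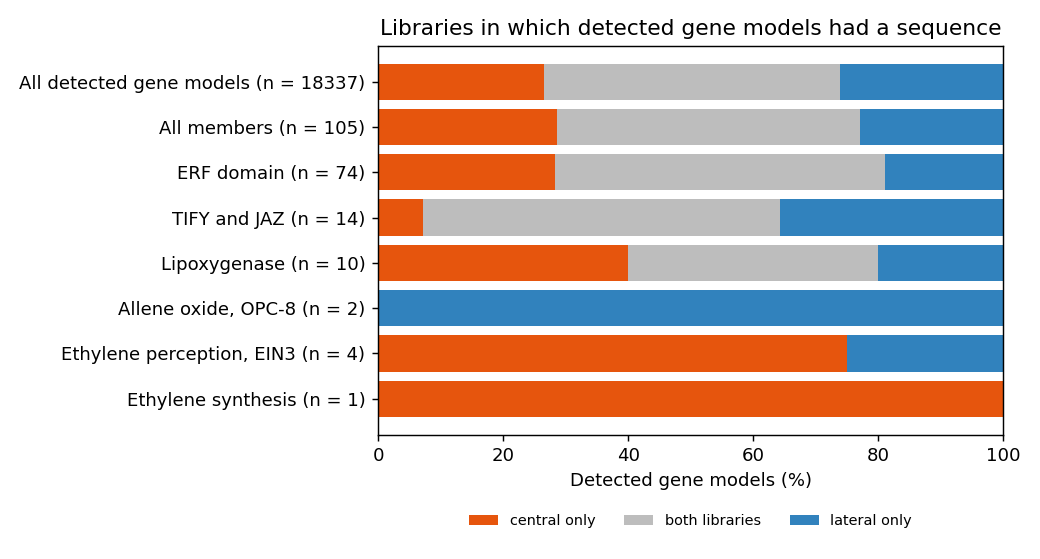
Share of detected gene models (x axis, %) with sequences in the central library alone, in both or in the lateral library alone, by group of members and for all detected gene models, with the number of models in brackets. Members as a whole (28.6%, 48.6% and 22.9%) lie near all models (26.6%, 47.2% and 26.1%), and the groups of 1, 2 and 4 models have too few for their bars to be read as shares.

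Ethylene synthesis was represented by MDP0000453114, the ethylene-forming enzyme. It had 1 central and 0 lateral sequences, and the sequence did not map uniquely, so it may belong to a copy of the gene. The whole table annotates it as a 2OG-Fe(II) oxygenase, the wider enzyme family, so other ACC oxidases may stand there under that name. The authors' deposited sheet headed LP lists the gene with an FDR of 0. This 1 sequence gives no direction for the gene.

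In ethylene perception and the EIN3 step, 3 of 4 genes had sequences in the central library alone, as did 26.6% of all detected models, and 2 of the 3 are models that may be copies. EIN3-binding F box protein 1, MDP0000165656, had 2 central and 0 lateral sequences, all uniquely mapped. Both models annotated as Ethylene insensitive 3, MDP0000190273 and MDP0000727426, had 1 central and 0 lateral sequences. They have the same length, 552 bases, and the sequence of MDP0000727426 was not unique, so near-identical copies cannot be told apart here. The ethylene sensor MDP0000762267, matched by the authors to the Arabidopsis gene of the receptor ETR1, had 0 central and 1 lateral sequences, the latter not unique. With 4 central sequences and 1 lateral, the lateral share of this group was 20.0%, with an exact interval from 0.505% to 71.6% that includes the share of all sequences. EIN3-binding F box protein 1 and the ethylene sensor are members only through the annotation of the CP sheet. Other genes of this step may stand in the whole table under other names, so these are not shares of a family.

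ERF-domain factors made up most of the set, with 75 central and 67 lateral sequences. The words met 264 models with this domain annotation, of which 74, or 28.0%, had a sequence, while 28.9% of all gene models did. Sequences were found in both libraries for 39 factors, in the central library alone for 21 and in the lateral library alone for 14. These are 52.7%, 28.4% and 18.9% of the factors, beside 47.2%, 26.6% and 26.1% of all detected models. The lateral share of the sequences was 47.2% (38.8% to 55.7%). The factors with the most sequences were MDP0000175375, with 2 central and 3 lateral, and MDP0000190889, MDP0000241650 and MDP0000801540, each with 3 central and 2 lateral. In each of them the libraries were within 1 sequence of each other. The widest gaps were of 2 sequences. MDP0000204900, MDP0000317932, MDP0000665685 and MDP0000939633 had 2 central and 0 lateral sequences, MDP0000128924 had 3 and 1, and MDP0000181606 and MDP0000314518 had 0 and 2. These 7 were chosen after their values were seen, and neither sequence of MDP0000665685 was unique.

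Lipoxygenases, which oxidise fatty acids at the first step of jasmonate synthesis and also in other pathways, had 12 central and 9 lateral sequences, all of them unique. All 10 models with a sequence were annotated by the LH2 domain. They are 35.7% of 28 such models, while 28.9% of all gene models had a sequence. The 5 models annotated as Lipoxygenase and the 4 as Lipoxygenase, C-terminal had none. The model with the most sequences was MDP0000204470, with 2 in each library. MDP0000272843 and MDP0000423544 each had 1 central and 2 lateral sequences. MDP0000174168 had 2 central and 0 lateral, as did MDP0000264666 and MDP0000923670, which were picked after their values were seen. Of the 10 models with a sequence, 4 had central sequences alone, 2 lateral alone and 4 both. The shares of all detected models were 26.6%, 26.1% and 47.2%. The lateral share of the lipoxygenase sequences was 42.9% (21.8% to 66.0%). Lipoxygenase 2, MDP0000178268, which is on the CP sheet with a deposited FDR of 0, had no sequence in either library. Its model is 212 bases long, the shortest of the members, and the other 10 lipoxygenases are 2417 to 4533 bases long.

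The 2 enzymes after lipoxygenase had lateral sequences only, 3 in all, as did 26.1% of all detected models. Both are members only through the annotation of the authors' sheets. They were thus chosen from genes listed as differing and are not a sample of a family. The exact interval of their lateral share, 29.2% to 100%, includes the share of all sequences. Allene oxide cyclase 4, MDP0000239834, had 0 central and 2 lateral sequences, of which 1 was unique. That is 0.0109% of the lateral library (exact interval 0.00132% to 0.0393%), and the central count of 0 allows more than this estimate. OPC-8:0 CoA ligase1, MDP0000376256, had 0 central sequences and 1 lateral.

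TIFY and JAZ genes had 11 central and 16 lateral sequences. Of the 14 genes, 5 had lateral sequences alone, 1 central alone and 8 both, where the shares of all detected models were 26.1%, 26.6% and 47.2%. The lateral share was 59.3%, and its interval, 38.8% to 77.6%, includes the share of all sequences. MDP0000282472 and MDP0000452772 had 2 sequences in each library, and MDP0000243322 had 1 in each. The gene annotated as jasmonate-zim-domain protein 1 on the CP sheet, MDP0000187921, had 1 central and 2 lateral sequences. Of the 30 models annotated as Tify in the whole table, 13, or 43.3%, had a sequence, while 28.9% of all gene models did.

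**Figure D3:**
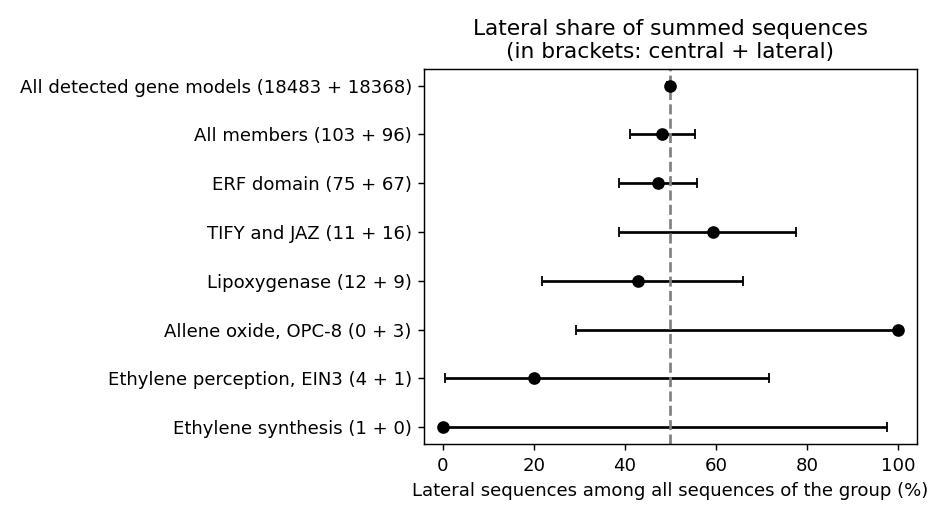
Lateral sequences as a share of all sequences of each group (x axis, %), and the dashed line at the share for all gene models. Points have exact binomial 95% intervals that cover counting error of assembled sequences only, not of reads. The interval of every group of members spans the line at 49.8%.

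In the deposited RPKM a count is divided by the length of its gene and by the size of its library. The counts are of assembled sequences, so RPKM here is not a measure of transcript level. A single sequence on a model of 1 kb is worth 54.1 RPKM in the central and 54.4 RPKM in the lateral library. ERF-domain factors with a central sequence had a median of 63.0 RPKM (20.7 to 136, 60 genes), and lipoxygenases one of 22.5 RPKM (18.3 to 44.8, 8 genes). In the lateral library the medians were 59.9 RPKM (15.0 to 198, 53 genes) and 29.2 RPKM (19.2 to 45.0, 6 genes). TIFY and JAZ genes lay near the ERF-domain factors, with medians of 58.7 RPKM central (9 genes) and 59.7 RPKM lateral (13 genes). The medians leave out genes at 0 and follow the length of the models, since 1 to 3 sequences were counted for each. The median length was 986 bases for ERF-domain factors and 2703 bases for lipoxygenases.

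**Figure D4:**
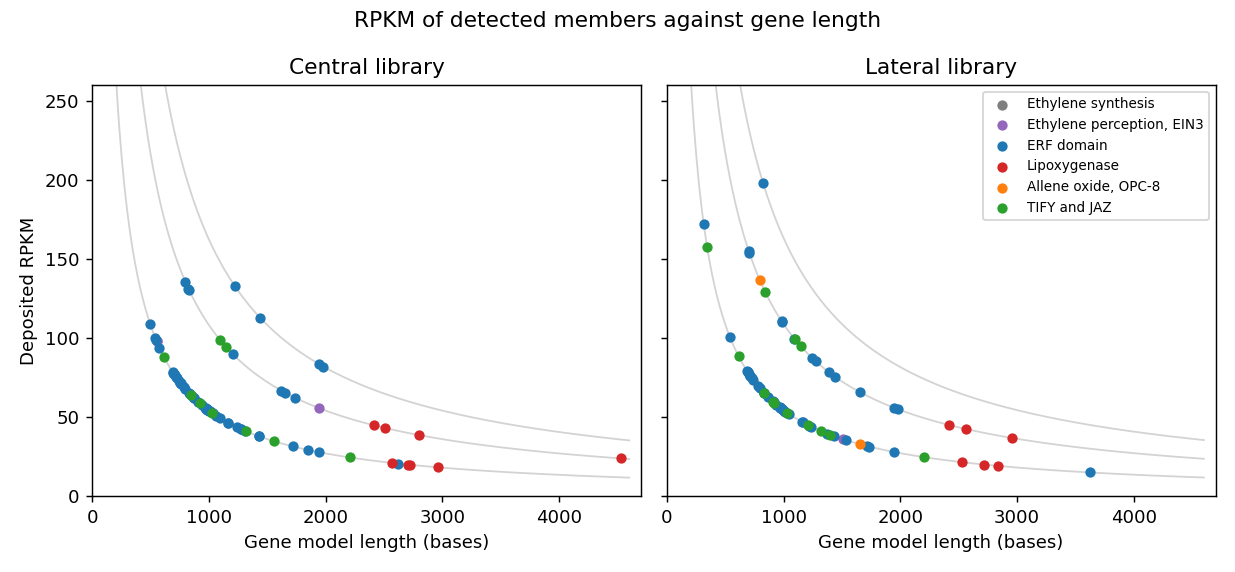
Deposited RPKM (y axis) of each member with a sequence against the length of its gene model in bases (x axis), central library on the left and lateral on the right, coloured by group. The grey curves are the levels of 1, 2 and 3 sequences, and every point lies on one of them, with the long lipoxygenase models at the low end.

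The authors' deposited table also holds Kal's Z-test between the libraries. At an FDR under 0.05 it calls 66 members, 62.9% of those with a sequence, where it calls 67.6% of all detected models. Of the members called in the deposited table, 33 are higher in the central library (34.0% of all detected models are called in that direction) and 33 in the lateral library (33.7%). All 54 members with sequences in 1 library alone are called there, among them all 43 with a single sequence. Of all 9673 detected models with sequences in 1 library alone, 9668 are called too, so this is not particular to the members. The deposited Z values are those obtained when RPKM is entered as if it were a count, and RPKM sums to 45.4 times the central and 45.5 times the lateral number of sequences.

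The authors' sheets of differing genes, found with NOISeq per the file headers, hold 9 members on the sheet headed CP and 5 on that headed LP. These are 8.49% and 4.72% of the members, where 1.33% and 1.17% of all gene models are on the sheets, but a row on a sheet was itself a way to become a member. Among the 99 members with a sequence that the whole table's annotation alone would choose, 4 are on the CP sheet, 4.04% beside 3.57% of all detected models, and 3 on the LP sheet, 3.03% beside 3.17%. All 7 are ERF-domain factors, 9.46% of the 74 such members, where 6.74% of all detected models are on either sheet. None of the 23 lipoxygenases and TIFY genes chosen in that way is on a sheet. At a share of 6.74%, 23 genes are too few for this to set the families apart.

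The CP sheet spans ethylene perception, ERF factors and jasmonate synthesis and response. Of its ERF-domain factors, 3 are matched to the same Arabidopsis gene, that of the ethylene-responsive element binding protein. Among them MDP0000128979 had 1 central and 0 lateral sequences, and MDP0000413387 and MDP0000848905 had 1 in each library. The fourth, annotated as ERF5, MDP0000240840, had 0 central sequences and 1 lateral, which was not unique. Over these 9 members the deposited FDR on that sheet ran from 0 for allene oxide cyclase 4 and lipoxygenase 2 to 1.62e-05 for the ethylene sensor, with 6.77e-12 for jasmonate-zim-domain protein 1, MDP0000187921. Over all entries of the deposited sheet it reached 0.000172, and 19.4% of entries had an FDR of 0.

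The LP sheet holds the ethylene-forming enzyme, OPC-8:0 CoA ligase1 and 3 ERF-domain factors. Cytokinin response factor 4, MDP0000464704, whose family belongs to the ERF factors and takes part in cytokinin response in Arabidopsis, had 0 central and 1 lateral sequences and a deposited FDR of 0. The other ERF-domain factors, MDP0000235028 (1 central and 2 lateral sequences, deposited FDR 3.85e-09) and MDP0000400129 (1 in each, deposited FDR 8.98e-06), are listed there as integrase-type DNA-binding proteins, so only the whole table's annotation marks them as members.

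Counts and sheets were then set side by side. Of the 9 CP members, 2 had more central sequences, 4 more lateral, 2 were equal and 1 had none. Over the 844 entries of that sheet, 34.0% had more central and 16.2% more lateral sequences. The 4 CP members with more lateral sequences were allene oxide cyclase 4, jasmonate-zim-domain protein 1, ERF5 and the ethylene sensor. By unique sequences alone, 3 CP members had more in the central library and 2 in the lateral, so this order turns with the kind of count. Of the 5 LP members, 3 had more lateral sequences, 1 more central and 1 was equal, where 31.4% of the 741 LP entries had more lateral and 15.7% more central. The values from which the sheets were made were not used here.

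**Figure D5:**
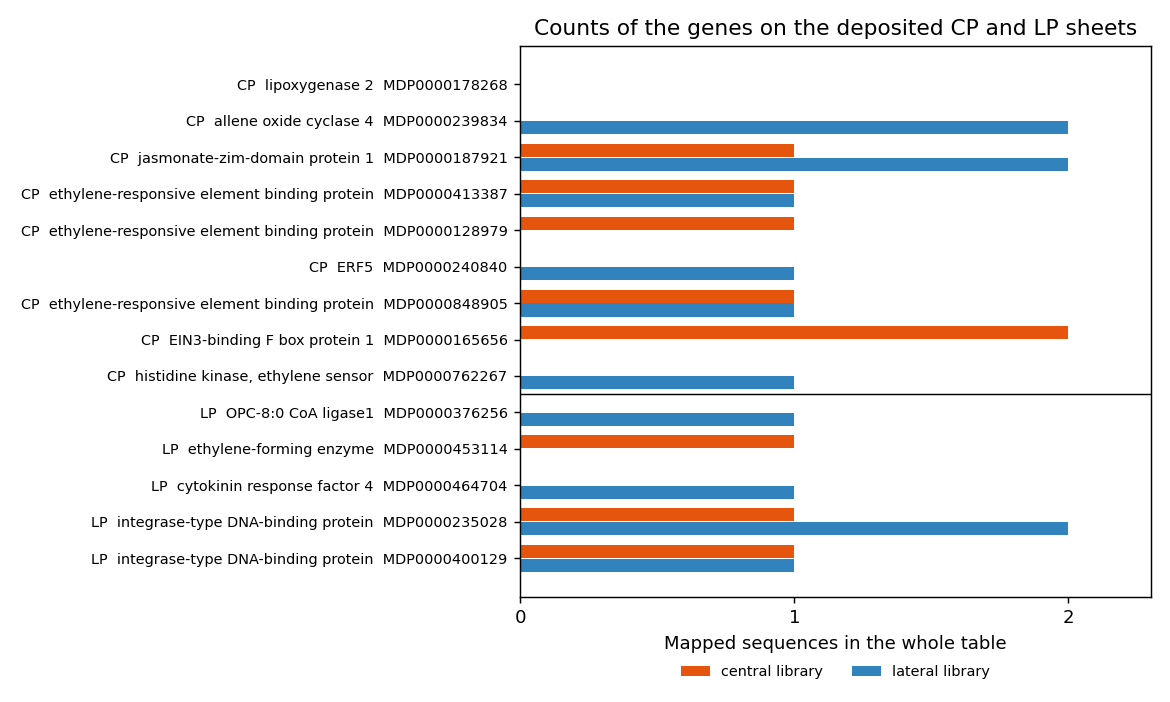
Mapped sequences (x axis) in the central and lateral library for the 9 members on the CP sheet, above the line, and the 5 on the LP sheet, below it, each ordered by deposited FDR. Central bars exceed lateral bars in 2 of the CP members and lateral bars exceed central ones in 4, while in the LP members the lateral bar is longer in 3.

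The authors' deposited table of log2 ratios gives a value for 3 members. It is 3.66 for allene oxide cyclase 4, the ninth largest in size of 78 CP genes with a ratio. For OPC-8:0 CoA ligase1 the deposited table has -6.14, the largest in size of 113 LP genes, and for cytokinin response factor 4 it has -4.93, the sixth. The sign is printed as deposited and is positive for every CP gene and negative for every LP gene with a ratio, although the first line of that table names lateral over central. The pair of jasmonate synthesis enzymes thus carry ratios of opposite sign and stand on different sheets, while both had lateral sequences alone in the counts.

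Pathway genes that are no members were few under the words searched for them. Of 15 S-adenosylmethionine synthetases, which make the precursor of ethylene, 3 had a sequence, with 2 central and 3 lateral in all. One of these, MDP0000444205, is on the LP sheet as methionine adenosyltransferase 3 with a deposited FDR of 1.60e-06, and had 1 sequence in each library. A phospholipase A2, of a family that can release fatty acids for jasmonate synthesis, MDP0000815303, also had 1 in each. The 3 acyl-CoA oxidases, which shorten the jasmonate precursor, had none. The words for ACC synthase, EIN2, the triple response kinase, the jasmonate receptor and MYC2 matched 0 models, since the whole table is annotated mostly by domain, so those genes were not examined. The words found 24 models in all, including the 2 methylenetetrahydrofolate reductases, which have another function. Of the 24, 4 had a sequence and none had 10, so none entered the test and none could be called.

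Genes found by annotation words linked to other tissues and to RNA handling were summed in the same way. The words are broad and do not mark a single cell type. Examples are lipid transfer and wax for epidermis and cuticle, and laccase and cellulose synthase for xylem and secondary wall. Heat shock words alone stood for RNA handling. Genes of chloroplast-bearing cells, 30 detected of 78, held 23 central and 22 lateral sequences. Epidermis and cuticle genes, 31 of 140, held 24 and 28, xylem and secondary wall genes, 13 of 72, held 11 and 16, and phloem genes, 2 of 2, held 2 and 2. Heat shock genes, 117 of 315, held 136 and 122. On the sheets the chloroplast genes had 8 CP and 17 LP entries, epidermis and cuticle genes 11 and 3, and xylem and secondary wall genes 1 and 6. Phloem genes had 1 and 1, and heat shock genes 12 and 4. Over all gene models the sheets hold 844 CP and 741 LP entries, 1.33% and 1.17% of the models. The words were searched in the sheets' annotation too, so a row on a sheet was itself a way into these groups. Their numbers of sheet entries can therefore not be read against those shares. The part of these in the values of the ethylene and jasmonate genes was not tested.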

How the data were processed

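For every gene model the authors deposited a count of mapped sequences in each library, a second count limited to unique hits, its length and RPKM. Per the file headers, Kal's test gave the p-value, FDR and Z score deposited beside them. Further deposited files are the CP and LP sheets, with a p-value and FDR per gene, and log2 ratios of the authors. Which aligner, assembler and gene models were used is not given in the sources used here. A further 13 columns of per-library values were not used. Gene model lengths are mostly coding lengths, since 92.2% are multiples of 3.

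Members were found by words, in both annotations, and 105 of 106 passed the limit of 1 sequence. Members and lists were chosen with earlier results of these data known. Named are members on a sheet, the 4 with the most sequences in each role and any with a difference of at least 3 sequences (0 members). Others are marked as chosen after their values were seen. Fisher's exact test used the whole table, with Benjamini-Hochberg adjustment over all models that reached the minimum, and compares 2 libraries, not conditions. It was tried on simulated Poisson counts, where recovery of changed models was required only far above the depth of these data. The simulation therefore does not show that the test works at this depth. The quasi-likelihood test of edgeR needs replicates, so edgeR's exact test (edgeR 4.0.16, R 4.3.3) was run with an assumed coefficient of variation of 0.4 as an alternative. Alternatives covered the count minimum, pseudocount, unit, unique sequences and how sheet entries are counted. The RefSeq gene table shared 0 identifiers with the files, so neither sequences nor coordinates are printed. Python 3.11.15, pandas 2.3.3, scipy 1.17.1 and matplotlib 3.10.9 were used.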

Additional observations from a re-analysis of the deposited data

How the results depend on the processing

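Of 30 alternative counts, each taken by itself, 23 stayed within 1.5 times the reported count or at 0 and 7 moved. The central-to-lateral order of some pairs of counts turned. The alternatives of members with a unique sequence and of sheet annotation alone were chosen after seeing the data. No gene model was called without a count minimum or by edgeR's exact test, which ran on the 24 models with at least 10 sequences, none of them a member, and gave 0 with an unadjusted p under 0.05. With a pseudocount of 1, members 2-fold higher in the central library numbered 8 and in the lateral library 24, because a single sequence then passes 2-fold only in the smaller library. With at least 2 sequences they numbered 9 and 3, since members with 1 sequence are left out. By RPKM, 31 members were at least 2-fold higher in central and 33 in lateral, and 70 members were higher in the lateral library at all, because equal counts give a slightly higher RPKM in the smaller library. By unique sequences, more central sequences were counted for 3 CP members and more lateral ones for 2, and 0 LP members had more central ones. Over all members the counts with more central and more lateral sequences were then 30 and 32, in place of 35 and 34. By the sheets' own annotation 3 members are on the LP sheet. Depth limits every member, none of which exceeds 3 sequences in a library. No paired analysis was possible because each group has 1 library.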

Other observations

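The deposited log2 ratios were examined after their values were seen. All 215 of them, taken out of the log, equal 1.05 times a proportion of whole numbers whose smaller member is at most 30, within a relative tolerance of 1e-07. For allene oxide cyclase 4, MDP0000239834, the smallest such numbers are 12 to 1, for cytokinin response factor 4, MDP0000464704, 1 to 32, and for OPC-8:0 CoA ligase1, MDP0000376256, 1 to 74. These are proportions and not counts, and the constant is fixed only up to a ratio of small whole numbers. With the constant chosen here, the larger number exceeds 10, the highest count of any gene model in the whole table, in 168 of the 215. Another constant could give another number. The whole table gives these 3 members 0 and 2, 0 and 1, and 0 and 1 sequences.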
